A study of Homo sapiens with 4 samples.

Results

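The mRNAs described here encode the structural maintenance of chromosomes (SMC) proteins and the cohesin subunits and loader that act with them: SMC1A, SMC3, RAD21, STAG1, STAG2 and NIPBL for cohesin, SMC2 and SMC4 for condensin, and SMC5 and SMC6 for the SMC5/6 complex. They were chosen by gene name, through their Ensembl identifiers in GENCODE v44, and are 10 of the 63677 genes in the count table. All 10 passed the filter on low counts and were among the 14645 genes tested.

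All 4 libraries come from HCT116, a human colorectal carcinoma cell line, after 48 h of transfection with pcDNA3.1-ORC1-3xFLAG, a plasmid for FLAG-tagged ORC1, a subunit of the origin recognition complex, which marks replication origins. RNA that came down with the tagged protein from nuclei under native conditions (ORC1-FLAG IP, 2 libraries) was sequenced beside RNA of the same nuclear material taken before precipitation (Input, 2 libraries), to ask which RNAs ORC1 binds in cells. The tagged protein was made in addition to the endogenous one, and no library with a control antibody or from untransfected cells was analysed here, so that RNA held by the beads or the antibody cannot be told apart from RNA held by ORC1-FLAG. The study's methods speak of duplicate experiments and the labels number the RIPs 1 and 2, and neither says how far cells and preparation were separate, so p-values measure only the spread between these 2 RIPs, which may be technical in part.

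SMC proteins are long ATPases that fold back on themselves through a coiled coil and pair at a hinge, and a kleisin subunit closes the pair into a ring. Cohesin holds sister chromatids together and extrudes chromatin loops between CTCF sites, condensin compacts chromosomes for mitosis, and the SMC5/6 complex acts in recombination and in the repair of stalled replication forks. In frog egg extracts the loading of cohesin on chromatin depends on origin licensing, the step at which the origin recognition complex helps to place the replicative helicase.

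Of the 10 mRNAs, 7 were enriched in the IP and none was depleted. The enriched mRNAs were SMC1A, SMC3, SMC2, SMC6, NIPBL, STAG2 and STAG1, with log2 fold changes from 1.27 to 1.90, and RAD21, the kleisin, had the smallest value at 0.63. An mRNA was called enriched when the edgeR log2 fold change was above 1 and the Benjamini-Hochberg adjusted p over all tested genes was below 0.05. By this rule 10.5% of all tested genes were enriched and 8.3% depleted, and 11.9% of the protein-coding genes were enriched. The median log2 fold change was 1.47 over the 10 mRNAs and 0.01 over all tested genes. Both IP libraries lay above both Input libraries for all 10 mRNAs in scaled CPM, the counts relative to the library total after scaling between libraries, as for 33.2% of all tested genes. Without scaling between libraries, in CPM of the library total, this held for 8 of the 10 and for 14.5% of all tested genes, and SMC5 and RAD21 were the 2 whose groups overlapped. The log2 ratio of IP to Input within a RIP was above 0 in both RIPs for all 10 and for 42.9% of all tested genes, and above 1 in both for 7 of the 10 and for 8.95% of all tested genes.

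In the order SMC3, SMC2, SMC1A, SMC6, NIPBL, SMC4, STAG2, STAG1, SMC5 and RAD21, each log2 fold change exceeded the next by 0.00 to 0.19 up to SMC5, less than any of their standard errors (0.23 to 0.45). The step from SMC5 to RAD21 was 0.45, with standard errors of 0.41 and 0.34. Each error belongs to the IP against Input contrast of a single gene, and all genes share the same libraries. Whether neighbours in this order differ was therefore not tested. Fold changes are relative to the other RNAs of each library, since no spike-in was described.

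**Figure D1:**
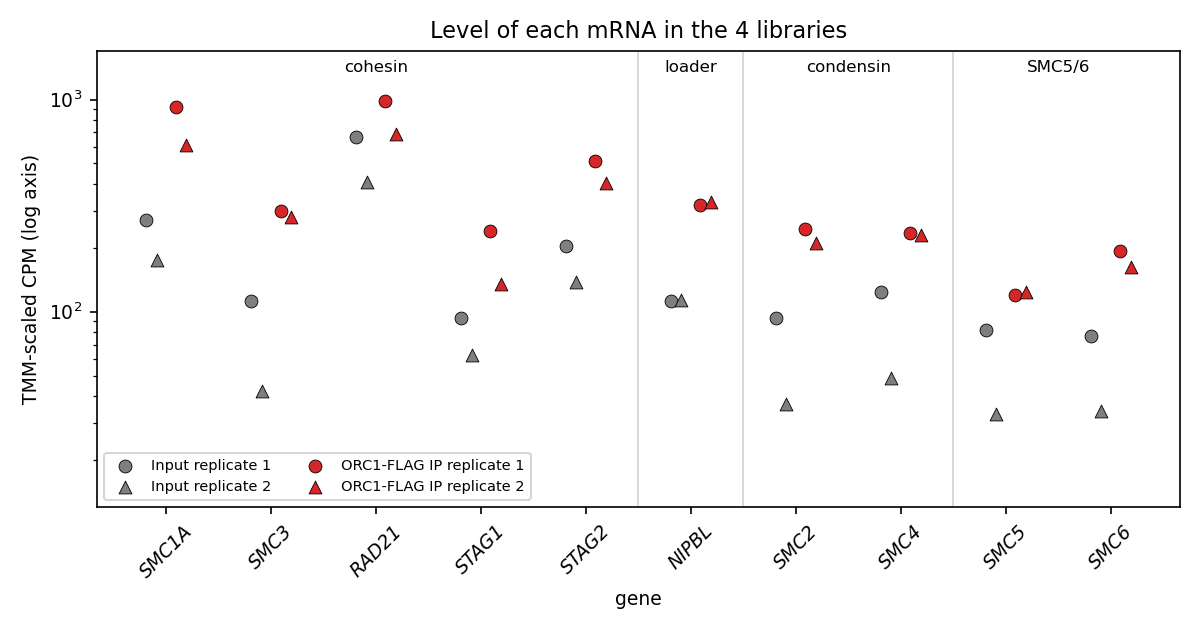
Level of each mRNA in scaled CPM (TMM, log axis), with 1 point for each of the 2 ORC1-FLAG IP and 2 Input libraries. Both IP points lie above both Input points for all 10 mRNAs, and for SMC2, SMC3, SMC4, SMC5 and SMC6 the point of Input 2 is far below that of Input 1.

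The study described runs of the triplet GAA over the full length of RNAs bound by ORC1. From where ORC1 crosslinked to RNA and from binding assays, it held that ORC1 does not bind through these runs. Here only the coding sequences of the 10 mRNAs were searched, for GAAGAAGAA. SMC1A, SMC2, SMC3, SMC5 and NIPBL held it, 5 of 10 mRNAs, beside 12.5% of 12534 tested coding genes. These 12534 are the tested coding genes with a coding sequence of at least 150 bases in GENCODE v44. Of the 2507 coding genes in the 2 longest deciles of coding length, where 9 of these 10 mRNAs lie, 26.7% held it. Its reverse complement TTCTTCTTC, searched on the same sense strand, was in none of the 10 and in 2.58% of the coding genes. Runs of SMC1A, SMC2, SMC3, SMC5 and NIPBL are printed to show their sequence context, 5′ to 3′ on the mRNA strand, with the whole GAA run in capitals and its flanks in lower case. The sequences are those of the GRCh38 reference with the exons of GENCODE v44, and no window crosses an exon junction.
SMC1A, exon 5, minus strand, chrX:53412942-53412968: actgaaggaGAAGAAGAAggagctggg
SMC2, exon 22, plus strand, chr9:104132014-104132040: tgacttgatGAAGAAGAAgagaattgt
SMC3, exon 24, plus strand, chr10:110601782-110601808: catgctattGAAGAAGAAagaagagtg
SMC5, exon 21, plus strand, chr9:70347628-70347654: acaaaaagaGAAGAAGAAatagaacag
NIPBL, exon 17, plus strand, chr5:37006360-37006389: aacgatactGAAGAAGAAGAAaggttatgg
NIPBL, exon 44, plus strand, chr5:37058951-37058977: agcgacagtGAAGAAGAAgtttccagg
NIPBL, exon 46, plus strand, chr5:37063816-37063845: ccctgatGAAGAAGAAGAAGAAggggaggt

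Of the 8 runs in these mRNAs, 5 lay in the reading frame as GAA codons, which encode glutamate, and 3 as AAG codons, which encode lysine, both charged residues that are common in coiled coils. The runs of SMC1A and SMC2 and the exon 24 run of SMC3 were in the AAG frame, and those of SMC5 and NIPBL in the GAA frame. NIPBL held the longest, with 5 units in exon 46 and 4 units in exon 17. The shorter GAAGAA, which the longer run contains, had a median density of 3.1 per kb of coding sequence in the 10 mRNAs and of 0.95 per kb in all tested coding genes. The mRNAs with a GAAGAAGAA had log2 fold changes of 1.08 (SMC5) to 1.90 (SMC3) and those without it of 0.63 (RAD21) to 1.68 (SMC6), so the ranges overlapped. With 5 mRNAs on each side this is a description, and a run in the reference sequence is not a measured binding site.

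Total counts were 27483148 and 20280445 in IP 1 and IP 2, and 14677002 and 9213877 in Input 1 and Input 2, and the lowest count behind any value of the 10 mRNAs was 383 (SMC5 in Input 2). The transfected gene ORC1 itself was at 1108 and 18551 scaled CPM in IP 1 and IP 2 and at 333 and 5063 in Input 1 and Input 2, so its level differed more between the RIPs than between IP and Input. Its log2 ratio was 1.73 and 1.87, with an edgeR adjusted p of 0.374. The study describes the plasmid cDNA as codon-optimized, so how much of its RNA was counted at the ORC1 gene is not known. Endogenous ORC1 mRNA is counted there as well. Of 5 epithelial markers, all but VIL1 had more than 10 counts in a library, and their summed level was 1562 to 3046 CPM. Of 5 markers of leukocytes, endothelium, fibroblasts and red cells, 4 were under 10 counts in every library, and COL1A1 made up nearly all of their 7.96 to 26.9 CPM.

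SMC1A and SMC3 form the SMC pair of cohesin. SMC1A (ENSG00000072501, chromosome X, 53374149 to 53422728, minus strand, 25 exons, GENCODE v44 on GRCh38 as for all positions given here) had 926 and 609 CPM in IP 1 and IP 2 and 272 and 175 CPM in Input 1 and Input 2. All IP values were more than 3-fold above the Input of the same RIP. By edgeR the log2 fold change was 1.78 ± 0.35 (SE, adjusted p = 0.0172), and the log2 ratios within RIP 1 and RIP 2 were 1.77 and 1.79. It was enriched in each of the 4 fits that left out 1 library, at 1.34 to 2.17.

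SMC3 (ENSG00000108055, chromosome 10, 110567684 to 110606048, plus strand) had 300 and 279 CPM in the IP and 112 and 42.4 CPM in the Input libraries. The IP libraries were close to each other, and Input 1 was 2.63-fold above Input 2. The edgeR log2 fold change was 1.90 ± 0.45 (SE, adjusted p = 0.0267), with log2 ratios of 1.41 in RIP 1 and 2.70 in RIP 2. It was 1.22 without Input 2 and 2.81 without Input 1, called in both, so the size of the change rests on which Input is used. The annotation names 1 pseudogene of SMC3, whose reads the counting could have split from it.

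RAD21 (ENSG00000164754, chromosome 8, 116845934 to 116874776, minus strand, 14 exons) encodes the kleisin that closes the cohesin ring and that separase cuts at anaphase. Its level was 985 and 689 CPM in the IP and 669 and 411 CPM in the Input libraries, the highest Input level per length of the 10. IP 2 was only slightly above Input 1, and before scaling the order was 746 and 597 CPM in the IP and 796 and 522 CPM in the Input. In the edgeR fit the log2 fold change was 0.63 ± 0.34 (SE, adjusted p = 0.22), and it was called under none of the alternatives. With the RIP number as a block the value was 0.65 ± 0.18 (SE, edgeR adjusted p = 0.00519), so there only the fold minimum kept RAD21 from a call. It was 0.17 without Input 2 and 0.02 with scaling by library size alone. RAD21 also has the shortest coding sequence of the 10, at 1893 bases. The annotation names 1 pseudogene of RAD21, and UTP23 and RAD21-AS1 overlap 5.89% of its exonic bases on the opposite strand.

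STAG1 and STAG2 are alternative subunits that bind RAD21, and a cohesin ring carries one or the other. STAG2 (ENSG00000101972, chromosome X, 123960212 to 124422664, plus strand, 35 exons) had 512 and 405 CPM in the IP and 205 and 138 CPM in the Input libraries. For STAG2 the edgeR log2 fold change was 1.42 ± 0.30 (SE, adjusted p = 0.0202), and it was enriched whichever library was left out (1.01 to 1.77). STAG1 (ENSG00000118007, chromosome 3, 136336236 to 136752403, minus strand, 34 exons) had 241 and 135 CPM in the IP and 93.0 and 62.6 CPM in the Input libraries. Its IP libraries differed 1.79-fold, the most of the 10 mRNAs, and IP 2 was 2.14-fold above its own Input. For STAG1 the edgeR log2 fold change was 1.27 ± 0.35 (SE, adjusted p = 0.0431), and the call was lost without IP 1 (0.83), without Input 2 (0.86) and with the size factors of DESeq2 in edgeR (1.24, adjusted p = 0.0585). Of the exonic bases of STAG1, 21.2% overlap PCCB on the opposite strand. The library kit was a stranded one, but without a statement on strand in the counting it is not known whether reads of both were kept apart.

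NIPBL, with MAU2, loads cohesin and stimulates its ATPase. NIPBL (ENSG00000164190, chromosome 5, 36876769 to 37066413, plus strand, 47 exons) had 320 and 329 CPM in the IP and 112 and 114 CPM in the Input libraries. It was the most even of the 10 mRNAs, with the libraries of a group differing 0.972-fold and 0.981-fold. With edgeR its log2 fold change was 1.52 ± 0.23 (SE, adjusted p = 0.0116), the smallest error of the 10, and the log2 ratios were 1.51 and 1.52. It stayed enriched in the 4 fits without 1 library, at 1.39 to 1.59. Scaling by library size alone gave 0.92, below the fold minimum. NIPBL also has the longest coding sequence, at 8412 bases.

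SMC2 and SMC4 form the SMC pair of both condensins. SMC2 (ENSG00000136824, chromosome 9, 104094260 to 104141419, plus strand) had 246 and 211 CPM in the IP and 93.1 and 36.9 CPM in the Input libraries. Its edgeR log2 fold change was 1.81 ± 0.43 (SE, adjusted p = 0.0275), and it was 1.15 without Input 2 and 2.67 without Input 1, called in both. SMC4 (ENSG00000113810, chromosome 3, 160399274 to 160434954, plus strand, 24 exons) had 236 and 229 CPM in the IP and 124 and 48.8 CPM in the Input libraries. All IP values of SMC4 were above all Input values, and in RIP 1 the difference was 1.9-fold. Its edgeR log2 fold change was 1.42 ± 0.43 (SE) with an adjusted p of 0.0523, just outside the call. With the RIP number as a block SMC4 was called (edgeR log2 fold change 1.57 ± 0.31, adjusted p = 0.00493), and without Input 1 as well (2.29), but without Input 2 it was at 0.76. Of its exonic bases 22% overlap IFT80 and TRIM59 on the opposite strand, and the annotation names 1 pseudogene of it.

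SMC5 and SMC6 form the SMC pair of the SMC5/6 complex. SMC6 (ENSG00000163029, chromosome 2, 17663812 to 17800242, minus strand, 28 exons) had 193 and 162 CPM in the IP and 76.6 and 34.1 CPM in the Input libraries. Its edgeR log2 fold change was 1.68 ± 0.39 (SE, adjusted p = 0.0266), with 1.06 without Input 2 and 2.42 without Input 1, called in both. SMC5 (ENSG00000198887, chromosome 9, 70258978 to 70354873, plus strand) had 120 and 124 CPM in the IP and 82.4 and 32.8 CPM in the Input libraries. In RIP 1 its IP was 1.46-fold and in RIP 2 3.73-fold above the Input. For SMC5 the edgeR log2 fold change was 1.08 ± 0.41 (SE, adjusted p = 0.1), and it was called with the RIP number as a block (1.21 ± 0.34, adjusted p = 0.0309). SMC5 was at 0.42 without Input 2 and was called without Input 1 (1.94) and without IP 2 (1.11).

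**Figure D2:**
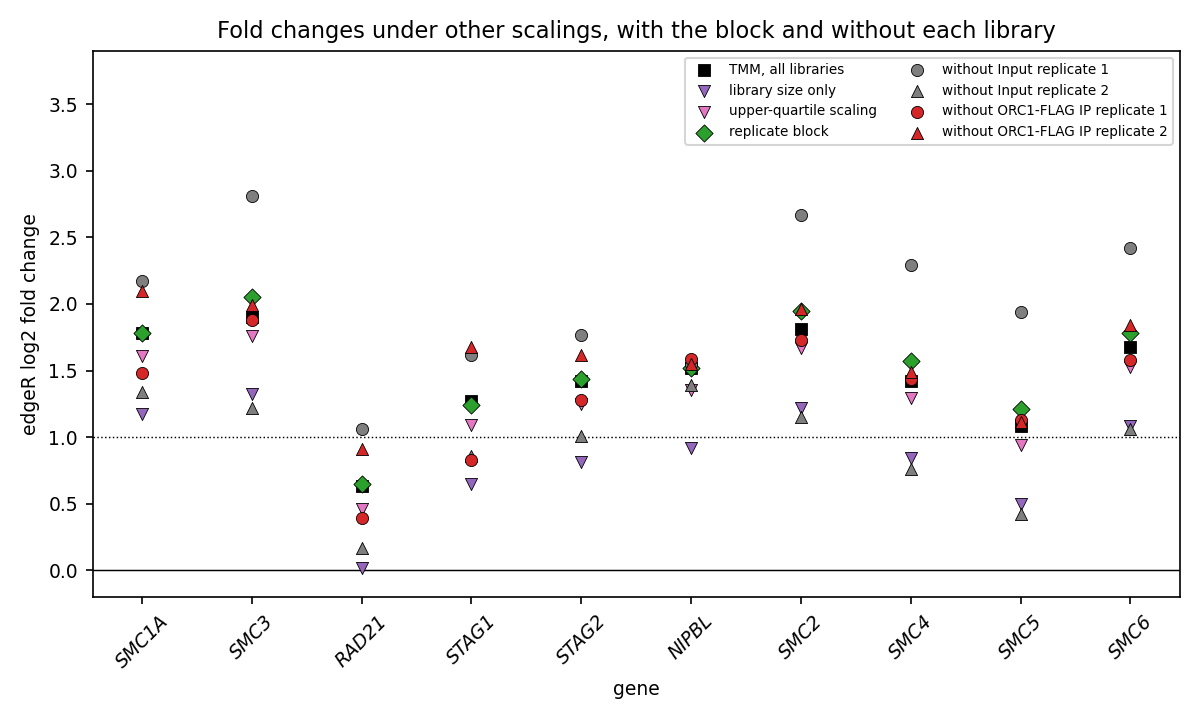
The edgeR log2 fold change of each mRNA under the reported fit (TMM, all libraries), 2 other scalings, the block by RIP number and without each library in turn, with the fold minimum of 1 as a dotted line. RAD21 is the lowest of the 10 in the reported fit, and SMC2, SMC3, SMC4, SMC5 and SMC6 move up without Input 1 and down without Input 2.

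The number of the 10 mRNAs called enriched is given here beside the share of all tested genes enriched in the same fit. It was 9 with the RIP number as a block, where 13.4% of all tested genes were enriched, 9 without Input 1 (11.9%), 9 without IP 2 (12%), 6 without IP 1 (8.04%) and 6 without Input 2 (9.23%). Of the other scalings, the size factors of DESeq2 gave 6 (9.75%), the upper quartile 7 (7.37%) and library size alone 2, SMC1A and SMC3 (2.59%). The number was 8 without a count filter (4.94%) and with a minimum of 1 CPM in 2 libraries (11%), 9 with DESeq2 (11%), 8 with limma voom (10.5%) and 9 at an unadjusted p below 0.05 (12.3%). A test against the fold minimum itself (glmTreat) called none of them, and 0% of all genes enriched. SMC1A and SMC3 were called in all of these fits but the last, and RAD21 in none.

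Levels can be set beside each other only per length. In Input, RAD21 had 46.5 and 28.6 CPM per kb of exonic sequence and SMC1A 25.1 and 16.2, and neither overlapped its neighbour in the order. The others followed, by mean, as STAG2 (10.7), SMC4 (10.6), SMC2 (10), STAG1 (9.92), NIPBL (9.02), SMC5 (8.71), SMC6 (5.63) and SMC3 (4.99 CPM per kb), and each overlapped its neighbour within the spread of the 2 Input libraries. The order depends on the length used. Per kb of the canonical transcript RAD21 was still highest, with a mean Input level of 148 CPM per kb, but STAG2 (27.8) was above SMC1A (23) and SMC3 (14) was above STAG1 (12.8), SMC2 (11) and NIPBL (10.8). In the IP, SMC1A was highest per exonic kb, at 85.5 and 56.2 CPM per kb, and RAD21 next, at 68.5 and 47.9.

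The 10 mRNAs fell into 2 sets by how alike the Input libraries were. For SMC2, SMC3, SMC4, SMC5 and SMC6, Input 1 was 2.23- to 2.63-fold above Input 2, while IP 1 and IP 2 differed 0.975- to 1.19-fold. A log2 difference of Input 1 minus Input 2 above 1 was found in 2.32% of the tested coding genes (291 of 12534) and in 5 of the 10 mRNAs. Genes with Input 2 above Input 1 by as much were not counted in this share. At the 5th percentile of the coding genes the difference was -0.94. For SMC1A, RAD21, STAG1, STAG2 and NIPBL, Input 1 was 0.981- to 1.63-fold of Input 2 and the IP libraries differed 0.972- to 1.79-fold. The log2 ratio was higher in RIP 2 than in RIP 1 by 0.90 to 1.35 in the first set, and differed by -0.27 to 0.23 in the second. For SMC2, SMC3, SMC4, SMC5 and SMC6 the difference between the RIPs thus came with a difference in the Input and not in the IP. Of the partner genes, the other genes of these complexes and their regulators described below, RAD50 and SGO2 had a like split. Their log2 ratio was higher in RIP 2 by 1.14 and 1.16. Input 1 minus Input 2 was 0.91 and 1.38, and IP 1 minus IP 2 was -0.23 and 0.21. In the other tested partner genes the ratio was higher in RIP 2 by at most 0.74 (ESCO1).

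The coding sequences of the first set had a GC content of 37 to 39% and those of the second set of 39.6 to 50.4%. Of the tested partner genes, SMCHD1, ESCO1, ESCO2, SGO1 and RAD50 also lay at 37 to 39%. Their log2 difference of Input 1 minus Input 2 was 0.43 (SMCHD1) to 0.91 (RAD50). SGO2, at 34.5%, was at 1.38. Over the 12534 coding genes the log2 difference of the Input libraries was related to the GC content of the coding sequence with a Spearman correlation of -0.294, and over the 10 mRNAs with one of -0.636, the same 2 libraries lying behind every point. In the decile of lowest GC (31.1 to 41.3%), the median log2 difference of Input 1 minus Input 2 was 0.39 and that of IP 1 minus IP 2 was 0.13. The median log2 ratio of IP to Input in that decile was 0.16 in RIP 1 and 0.38 in RIP 2. Whether GC content has a part in the spread of the SMC mRNAs was not tested.

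**Figure D3:**
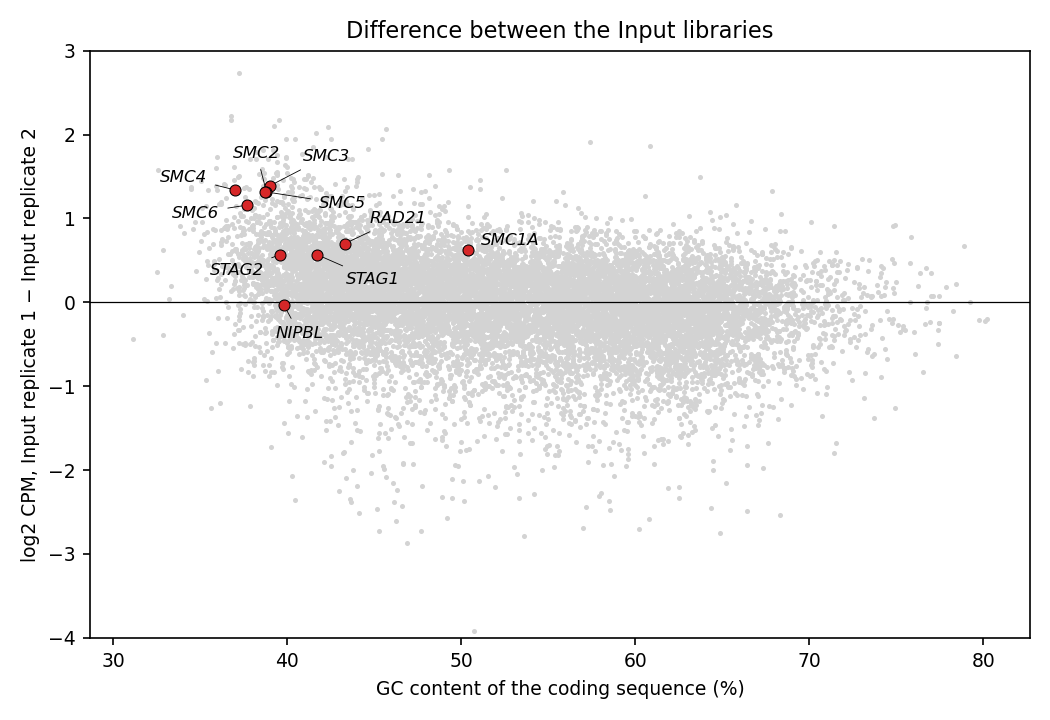
Log2 difference in CPM between Input 1 and Input 2 against the GC content of the coding sequence (%), with grey points for tested coding genes and red, named points for the 10 mRNAs. SMC2, SMC3, SMC4, SMC5 and SMC6 lie above 1 at a GC content of 37 to 39%.

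The mRNAs differ in coding length, and so does recovery in the IP over all coding genes. The Spearman correlation of the edgeR log2 fold change with coding length was 0.59 across the 12534 coding genes, which are not independent replicates, and 0.127 across the 10 mRNAs. In the longest decile (3612 to 107973 bases), which holds SMC1A, SMC3, SMC4, STAG1, STAG2 and NIPBL, 46.6% of genes were enriched and the median log2 fold change was 1.07. In the next decile (2595 to 3612 bases), which holds SMC2, SMC5 and SMC6, 24.1% were enriched, with a median of 0.64. RAD21 lies in the decile of 1695 to 2064 bases, of which 10.4% were enriched, with a median of 0.28. The enriched share of the 10 mRNAs, 70%, therefore stands beside a background of 24.1% to 46.6% at like length for all but RAD21.

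All 10 mRNAs were above the median log2 fold change of their own length decile, by 0.20 (STAG1) to 1.17 (SMC2). Of the 10, SMC1A, SMC2, SMC3, SMC5, SMC6 and NIPBL, 6 in all, were also above its upper quartile. Without Input 2 only 5 of the 10 remained above the median of their decile and 2 above the upper quartile, and without IP 1 these numbers were 9 and 4. Without Input 1, and likewise without IP 2, all 10 were above both. The position of these mRNAs relative to others of their length thus depends on which library is left out, in the IP as well as in the Input.

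**Figure D4:**
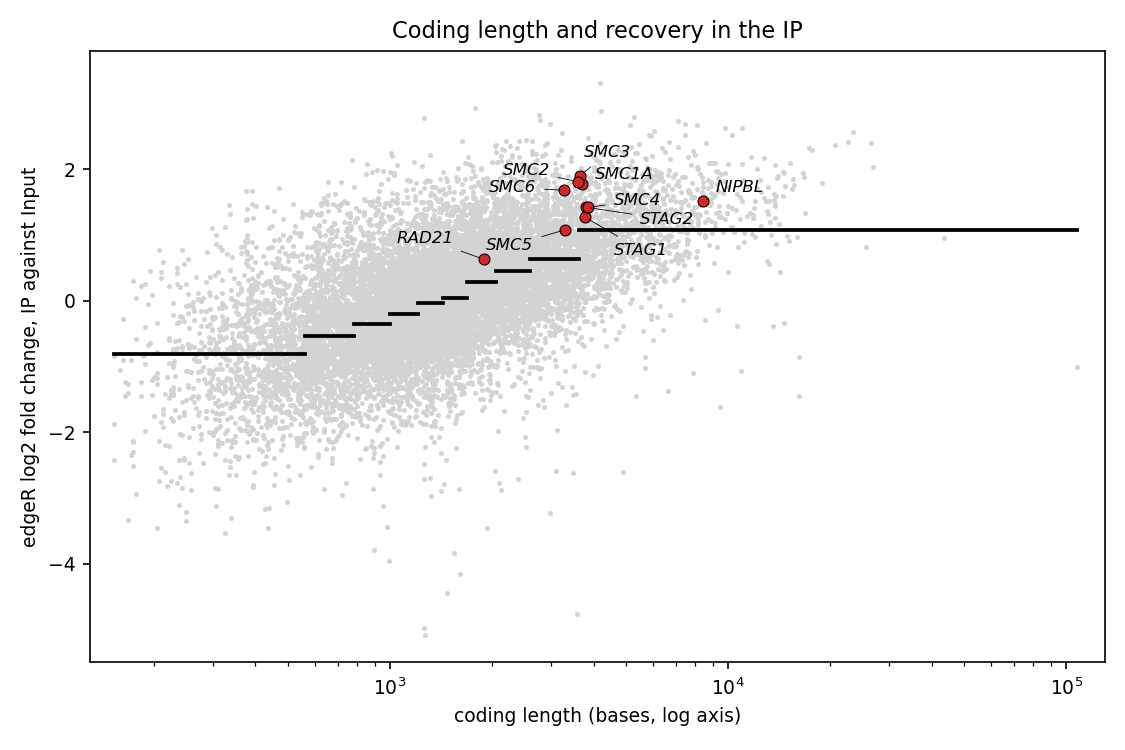
The edgeR log2 fold change of IP against Input against coding length in bases (log axis), with grey points for tested coding genes, a black bar for the median of each length decile and red, named points for the 10 mRNAs. All 10 lie above the line, at 0.63 for RAD21 and 1.90 for SMC3.

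Ratios of counts between partner mRNAs within a library do not depend on how libraries are scaled. There were 0.406 and 0.426 counts of SMC1A per count of RAD21 in Input 1 and Input 2, and 0.94 and 0.884 in IP 1 and IP 2, a log2 change of 1.21 and 1.05. The log2 change of SMC3 to RAD21 was 0.86 and 1.97. Both partner ratios to the kleisin were thus higher in both IP libraries than in both Input libraries.

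For the alternative subunits, the ratio of STAG2 to STAG1 was 2.21 and 2.2 in the Input and 2.12 and 3.01 in the IP libraries, with log2 changes of -0.06 and 0.45 that differ in sign. The log2 change of SMC1A to SMC3 was 0.35 in RIP 1 and -0.92 in RIP 2, also with no common direction. The ratio of SMC2 to SMC4 was 0.75 and 0.756 in the Input and 1.05 and 0.921 in the IP, and that of SMC6 to SMC5 was 0.93 and 1.04 in the Input and 1.6 and 1.31 in the IP. NIPBL to its partner MAU2 was 3.16 and 3.01 in the Input and 7.54 and 8.33 in the IP, log2 changes of 1.26 and 1.47. With 2 RIPs these ratios were not tested.

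Of 31 other genes of the same complexes and their regulators, 29 were tested, 11 were enriched (37.9%) and none was depleted. Their median log2 fold change was 0.63. Over all tested genes 10.5% were enriched and 8.3% depleted, the shares to set beside the smaller counts below as well. Of the 29 genes, 19 were above the median log2 fold change of their own length decile and 11 above its upper quartile. Among 14 regulators of cohesin, 4 were enriched. They were PDS5B, which binds RAD21 and regulates release (1.70 ± 0.24, edgeR adjusted p = 0.0107), CTCF, which halts loop extrusion (1.48 ± 0.32, adjusted p = 0.0206), ESPL1, the separase (1.21 ± 0.24, adjusted p = 0.0178), and DDX11, a helicase of sister chromatid cohesion (1.19 ± 0.24, adjusted p = 0.0177). The loader partner MAU2 (0.16 ± 0.21, edgeR adjusted p = 0.62) and the release factor WAPL (0.61 ± 0.25, edgeR adjusted p = 0.122) were not called. With the RIP number as a block MAU2 was at 0.16 (edgeR adjusted p = 0.407) and WAPL at 0.61 (0.00563), both below the fold minimum.

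Condensin I and condensin II share SMC2 and SMC4 and differ in their other subunits. The 3 condensin I subunits were enriched, NCAPH at 1.71 ± 0.35 (SE, edgeR adjusted p = 0.0187), NCAPD2 at 1.27 ± 0.28 (adjusted p = 0.0229) and NCAPG at 1.05 ± 0.30 (adjusted p = 0.0473). The 3 condensin II subunits were not called, with NCAPD3 at 0.77 ± 0.24 (edgeR adjusted p = 0.0618), NCAPG2 at 0.57 ± 0.28 (0.176) and NCAPH2 at 0.23 ± 0.27 (0.57). With the RIP number as a block NCAPD3 was at 0.76 (edgeR adjusted p = 0.00121), NCAPG2 at 0.54 (0.0206) and NCAPH2 at 0.22 (0.266). All 3 were below the fold minimum there. Within each library the ratio of a condensin I subunit to its condensin II counterpart was higher in the IP than in the Input in both RIPs, by 1.42 and 1.55 for NCAPH to NCAPH2, 0.60 and 0.38 for NCAPD2 to NCAPD3 and 0.36 and 0.61 for NCAPG to NCAPG2 on the log2 scale. The difference between the condensins was not tested. NCAPD2 and NCAPG lost the call without IP 1 and without Input 2. NCAPG also lost it with the size factors of DESeq2 in edgeR (1.02, adjusted p = 0.0659), with the upper quartile (0.87) and without a count filter (1.02, adjusted p = 0.0797), so that of the 3 subunits NCAPH alone kept the call in all of these fits. With scaling by library size alone, PDS5B, NCAPH and RAD50 were the partner genes still called. LCORL overlaps 33.7% of the exonic bases of NCAPG on the opposite strand.

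Of the 5 other subunits of the SMC5/6 complex, the SUMO ligase NSMCE2 (1.06 ± 0.23, edgeR adjusted p = 0.0204) and the kleisin NSMCE4A (1.15 ± 0.25, adjusted p = 0.0212) were enriched. Both lost the call without IP 1, without Input 2 and with upper-quartile scaling. EID3, a germline relative of NSMCE4A, was the lowest of the 29 genes at -1.69 ± 1.03 (edgeR adjusted p = 0.268) from 6 to 53 counts a library, and was called depleted with the RIP number as a block (-1.63, adjusted p = 0.00316), as were 13.4% of all tested genes in that fit. The value of EID3 rests on single libraries, with 0.06 without Input 2, -2.47 without Input 1, -3.06 without IP 2 and -0.91 without IP 1. The 2 SMC-like genes outside the 3 complexes, RAD50 of the MRN complex (1.88 ± 0.34, edgeR adjusted p = 0.015) and SMCHD1, which acts on the inactive X chromosome (1.20 ± 0.29, adjusted p = 0.0291), were enriched, although 76.9% of the exonic bases of RAD50 overlap ENSG00000283782 on the same strand and SMCHD1 lost the call without IP 1 and without Input 2.

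Of the meiotic cohesin genes, which somatic cells use little, SMC1B and RAD21L1 had at most 8 counts in any library and were not tested. STAG3 (-0.56 ± 0.73, edgeR adjusted p = 0.614) had 14 to 28 counts. The acetyltransferase ESCO1, which locks cohesin on chromatin, was the third lowest at -0.51 ± 0.31 (edgeR adjusted p = 0.276), and was called depleted when only the library size was used for scaling (-1.10) and in the fit lacking Input 2 (-1.01), where 22.2% and 11.8% of all tested genes were depleted. In the fit lacking Input 1 ESCO1 was at 0.02 (edgeR adjusted p = 0.978), so its sign rests on Input 1.

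**Figure D5:**
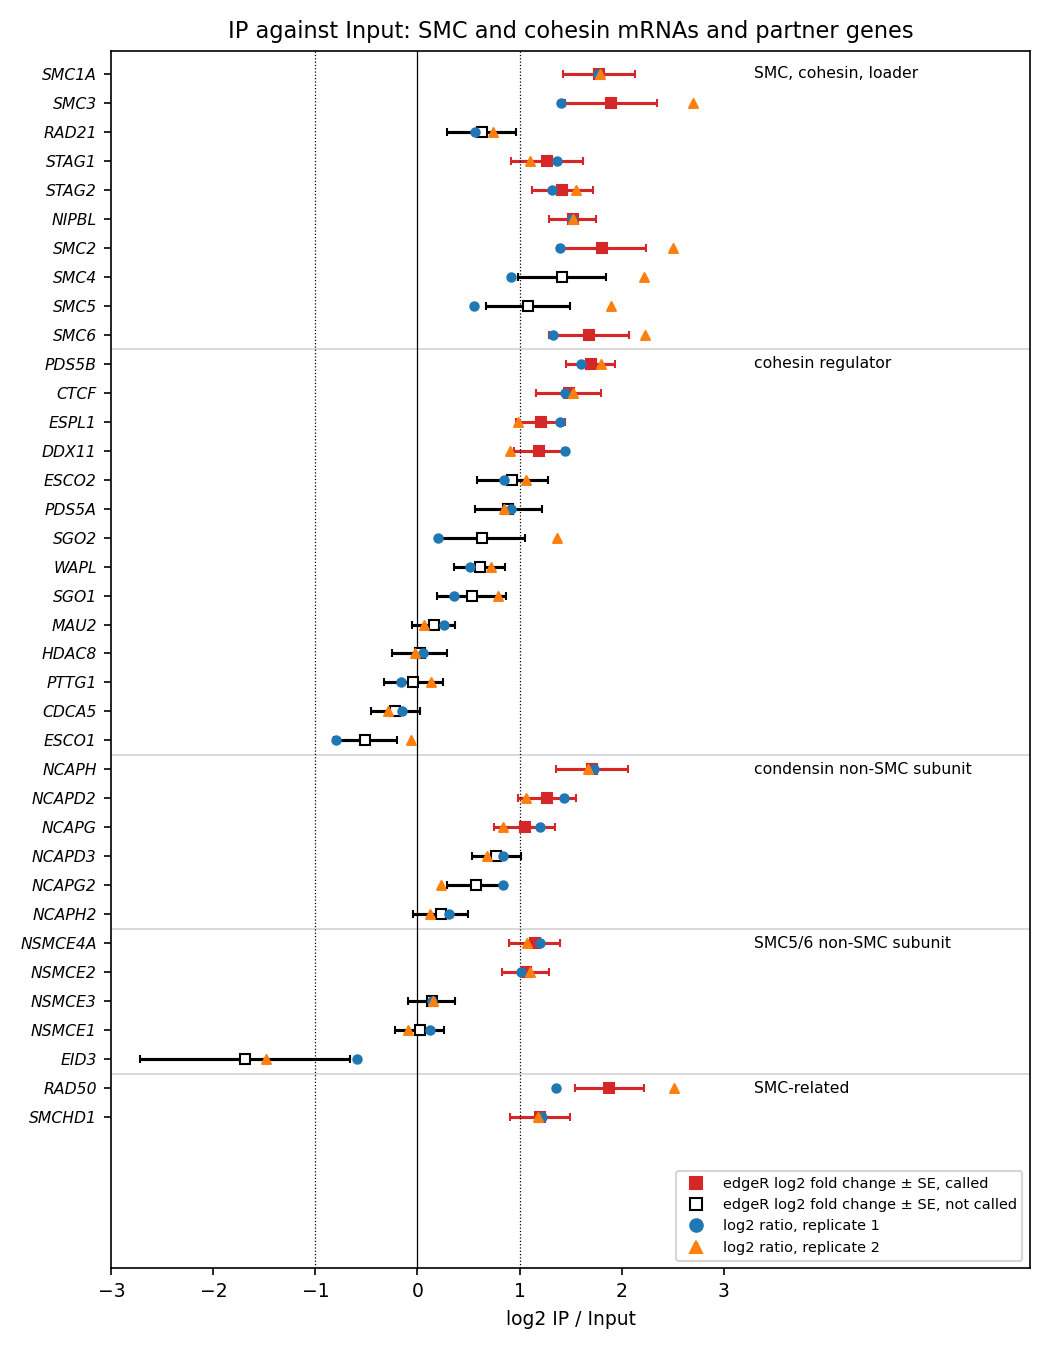
Log2 ratio of IP to Input in RIP 1 and RIP 2 (points) and the edgeR log2 fold change with its SE for the 10 mRNAs and the tested partner genes, the meiotic genes left out, with called genes in red and dotted lines at the fold minimum. The 10 mRNAs lie at 0.63 to 1.90 and the partner genes at -1.69 to 1.88.

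The 5 coding genes outside these lists whose levels in the 4 libraries were nearest to the mean profile of the 10 mRNAs (328 and 270 CPM in the IP, 141 and 75.7 CPM in the Input) were SHTN1, PHF3, C11orf58, CUL1 and PPP4R3A. Their Euclidean distances over the 4 log2 levels were 0.23 to 0.36, below those of the 10 mRNAs themselves, which ran from 0.74 (NIPBL) to 3.91 (RAD21). All 5 were enriched, at 1.28 to 1.59. As they were picked for IP and Input levels near this profile, their enrichment and their small distances follow from the choice. The likeness is one of level as well as of ratio, over 4 libraries.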

How the data were processed

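The deposited values are raw counts of reads per gene, without normalization by the authors. Per the labels, reads were processed with Trimmomatic, STAR and featureCounts on hg19/GRCh37, from TruSeq total RNA libraries. The study's methods name a stranded version of this kit. Whether counting used strand, how reads with several alignments were treated and the annotation release are not given in the sources used here. Reads carry no molecular identifiers.

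Counts were tested with edgeR 4.0.16 in R 4.3.3 (TMM scaling, filterByExpr, robust quasi-likelihood F test, group as the only term), with p-values adjusted by the Benjamini-Hochberg method over all 14645 tested genes. Calls needed an adjusted p below 0.05 together with a change of more than 1 on the log2 scale, up (enriched) or down (depleted). CPM are scaled by TMM unless stated otherwise, and ratios within a RIP were computed with 0.5 CPM added. SE are the fold change divided by the root of F. TMM factors (trimmed mean of M values) of the IP were 0.758 and 0.868, those of the Input 1.19 and 1.28. The labels give the IP and the Input of a RIP the same number, and their deviations from the group means were correlated (Pearson r = 0.645), so a fit with the RIP number as a block was among the alternatives, with limma 3.58.1 (voom), DESeq2 1.42.0, other scalings and filters, and fits without each library. The script was tested on simulated data.

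Gene models, sequences and coding lengths (without the stop codon) are from GENCODE v44 on GRCh38, another build than that of the counts, joined by Ensembl identifier, with the canonical transcript per gene. The members and lists (14 cohesin regulators, 4 meiotic cohesin genes, 6 condensin and 5 SMC5/6 subunits, 2 related genes, 5 epithelial markers and 5 markers of other cell types) were chosen with earlier results of these data known. Named beside the members were the partner genes called, the 3 highest and 3 lowest of those tested, and the 5 genes nearest in profile. Chosen after their values were seen were MAU2, WAPL, ESCO2, SGO1, SGO2 and the condensin II subunits. No test was made over a list. The sequence of 1 run is not reported here.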

Additional observations from a re-analysis of the deposited data

How the results depend on the processing

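All 10 mRNAs were above 0 in each of the 14 alternatives, and none reversed. The glmTreat test and the unadjusted p keep the fold changes of the reported fit, so they could not reverse any. In the reported fit 7362 of the 14645 tested genes were above 0. Enriched among the 10 were 7 as reported and 6 to 9 with other size factors, filters and tools and without single libraries. Scaling by library size alone, which moved the median of all genes by -0.6 (upper quartile -0.17, without Input 2 -0.15), left 380 genes enriched and 3257 depleted, with 2 of the 10 mRNAs (SMC1A and SMC3) and 3 of the partner genes enriched, and 10.4% of all calls were enriched where 55.9% were in the reported fit. With the upper quartile 41.2% were enriched, and without a count filter 49.5%. A test of the fold against the minimum itself (glmTreat) called 0 genes enriched and 1 depleted, 0 of the 10 mRNAs and 0 partner genes, with 1776 genes at an unadjusted p below 0.05. DESeq2 called 1610 genes enriched and limma voom 1542. With the replicate block 1957 genes were depleted in place of 1215, 9 of the 10 mRNAs were enriched, and besides SMC4 and SMC5 no call among the 10 changed. Leaving out 1 library gave 1291 to 1936 enriched and 846 to 1801 depleted genes, 6 to 9 of the 10 mRNAs and 6 to 15 partner genes. Counts of the 10 mRNAs were 383 or more in each library, and the cause of the spread between the 2 Input libraries was not tested. Moving the pseudocount of the ratios within a RIP shifted none of the 10 mRNAs by more than 0.02.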
